A study of Mus musculus with 12 samples.

Results

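Desmosomes are the spot-like junctions that hold neighbouring keratinocytes together, and the genes described here encode their membrane and armadillo-repeat parts. The 9 genes were taken by name from the list of 54532 genes measured: the desmogleins Dsg2 and Dsg3, the desmocollins Dsc2 and Dsc3, plakoglobin (Jup), the plakophilins Pkp1, Pkp2 and Pkp3, and Perp. Every one of the 9 had enough counts to be tested, among 13571 genes tested in all. The plakins, such as desmoplakin (Dsp), were not members.

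In a desmosome, desmogleins and desmocollins are calcium-dependent cadherins that reach across the gap between cells and bind the cadherins of the next cell. Their tails hold plakoglobin and plakophilins, and these in turn hold desmoplakin, which ties the junction to keratin filaments. Perp is a membrane protein of desmosomes with several membrane-spanning segments, and a target gene of p53 and p63. In stratified epidermis Dsg3 and Dsc3 are typical of the lower layers and Dsg1 and Dsc1 of the upper layers, while Dsg2, Dsc2 and Pkp2 are the forms best known from simple epithelia and heart.

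The 12 messenger RNA libraries came from cultured mouse keratinocytes of the labelled genotype WT DP-BirA(1-584), in which residues 1 to 584 of desmoplakin (DP) were fused to BirA, a biotin ligase that tags what lies close to it. All cells, the unwounded ones included, carried the fusion and were given calcium, doxycycline at 2 µg/mL and a 16 h biotin pulse, and cells of the wounded groups were scratch wounded before the pulse. From the translating part of a sucrose gradient, RNA retained on neutravidin resin made up the cortical fraction and RNA of the depleted remainder made up the total fraction. This gave 3 libraries of each fraction from unwounded and from wounded cells, with no cells lacking the fusion and no unlabelled cells among them. The labels call the replicates biological but give neither the origin of the line nor whether 2 fractions came from 1 dish, so p-values measure the spread between these libraries only.

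Total counts ran from 8980013 to 23457548 per library. Of 8 keratinocyte markers, all 8 were tested, and the basal keratins Krt5 and Krt14 had medians of 2741 and 3902 FPKM over the 12 libraries. Markers of fibroblasts, melanocytes, endothelium and immune cells were low, with summed FPKM of at most 0.679 for 8 fibroblast genes, 1.44 for 6 melanocyte genes, 0.297 for 4 endothelial genes and 0.0154 for 6 immune genes, of which 4 were at 0 in all libraries. Of 3 cardiac muscle markers, Myh6 and Actc1 were at 0 in all libraries and Tnnt2 ranged from 2.48 to 4.401 FPKM, and the simple-epithelium keratin Krt7 ranged from 0.177 to 2.51 FPKM. These levels are in the range of Dsg2 and Pkp2 below, and their part in those values was not tested. The suprabasal keratin Krt1 reached only 0.415 FPKM and Krt10 ranged from 7.51 to 15.6 FPKM. Wounded total replicate 1 stood apart, in which 13117 genes had a count, while the other 11 had 14393 to 16867, and with a library quality weight of 0.132 against 0.731 to 2.92. For the members, fold changes or calls that rest on it are given with and without it. Genes of the other lists below and the correlations are given with all 12 libraries only. How far those results rest on this library was not tested.

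From highest to lowest, the 9 genes spanned a far wider range than any of them did between conditions, though some neighbours in the order lay close. Levels are compared between genes as FPKM, which divides counts by gene length and library size. In unwounded total RNA, Perp stood at 793 ± 35.8 FPKM (mean ± SD, n = 3 here and below), 2087 times the level of Dsc2, which stood at 0.380 ± 0.113. Between them came Pkp1 at 140.2 ± 9.77, Jup at 99.5 ± 10.03, Pkp3 at 35.9 ± 2.62, Dsc3 at 27.2 ± 1.59 and Dsg3 at 15.6 ± 0.829. Pkp2 at 3.58 ± 0.264 and Dsg2 at 2.09 ± 0.200 were low. In this group no 2 neighbours in the order overlapped over their 3 libraries. The order was the same in wounded total RNA, where Dsg3 overlapped Dsc3 and Dsg2 overlapped Pkp2. In cortical RNA, Jup and Pkp1 overlapped and could not be ordered, at 169.6 ± 4.52 and 168 ± 2.41 FPKM in unwounded cells and 196 ± 5.48 and 198 ± 2.15 in wounded cells.

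**Figure D1:**
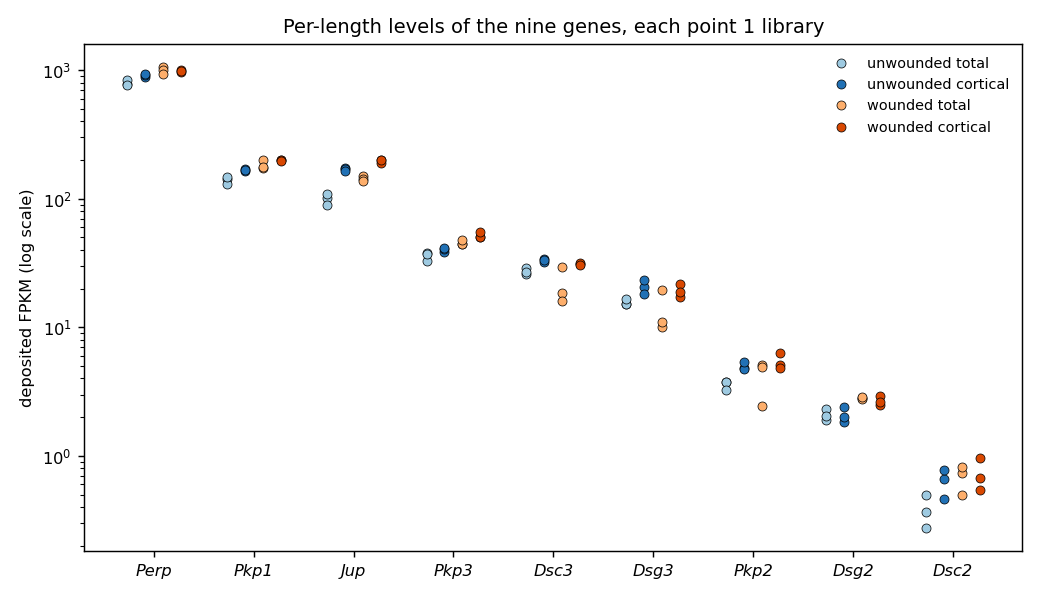
Deposited FPKM of the 9 genes on a log axis, each point 1 library, coloured by group. Perp lies above every other gene and Dsc2 below every other gene in all 12 libraries, and the steps between most genes exceed the differences between groups.

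Positions are on mouse genome build mm10. Jup (ENSMUSG00000001552) lies at chr11:100368958-100397763 and Perp (ENSMUSG00000019851) at chr10:18845020-18857073. Pkp1 (ENSMUSG00000026413) lies at chr1:135871395-135919207, Pkp2 (ENSMUSG00000041957) at chr16:16213318-16272712 and Pkp3 (ENSMUSG00000054065) at chr7:141078218-141090510. The 4 cadherin genes lie together on chromosome 18. Libraries were not directional, so reads of a gene and its antisense partner could not be told apart: Dsg2 overlaps the antisense gene Gm16090, which had 13 counts over all libraries, and no other member overlapped a gene on the opposite strand in the deposited list. The longest coding sequences ran from 579 bases in Perp to 3366 in Dsg2. Those of Jup and Pkp1 were 2235 and 2184 bases.

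Each family was dominated by the forms typical of stratified epidermis. Of the summed FPKM of the 2 desmogleins, Dsg3 made up 88.2% ± 1.29 in unwounded total RNA and Dsg2 the rest. Of the 2 desmocollins, Dsc3 made up 98.6% ± 0.338. Among plakophilins, Pkp1 made up 78.0% ± 0.522, Pkp3 19.98% ± 0.407 and Pkp2 2.01% ± 0.262. Desmosomal cadherins outside the 9 were scarcer than Dsg3: Dsg1a ranged from 3.37 to 5.61 FPKM over the 12 libraries and Dsg1b from 2.11 to 4.49. Dsc1, an upper-layer desmocollin, was too low to be tested, with 43 counts over all libraries and at most 0.122 FPKM. Jup was far above its close relative beta-catenin (Ctnnb1), which ranged from 5.23 to 12.6 FPKM. The Dsg1 genes are near-identical copies whose reads the authors' counting could have split, so their levels are uncertain.

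Jup, whose protein binds the tails of both kinds of desmosomal cadherin, was the 1 member called in both cortical-to-total comparisons below, and its promoter is shown for that reason. The 250 bases before the RefSeq start of Jup (GRCm38.p6, chr11:100397791-100398040, minus strand, 5′ to 3′) are printed with matches to a GC box (GGGCGG) and a CCAAT box (CCAAT), searched on both strands, in capitals. Jup was the only one of the 9 genes matched in the promoter table.
Jup promoter: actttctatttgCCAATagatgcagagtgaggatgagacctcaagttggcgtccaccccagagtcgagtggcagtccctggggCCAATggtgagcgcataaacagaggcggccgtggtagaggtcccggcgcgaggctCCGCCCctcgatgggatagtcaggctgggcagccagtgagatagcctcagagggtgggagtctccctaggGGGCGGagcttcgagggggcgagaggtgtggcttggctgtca
The GC box letters occur 2 times, at positions -112 to -107 (minus strand of the gene) and -42 to -37 from the start, and the CCAAT letters 2 times, at -238 to -234 and -167 to -163. No GC box match overlaps a CCAAT match. Of 32851 mouse promoter windows of the same length, 32.7% held at least 1 GC box match and 33.8% at least 1 CCAAT match. At least 2 matches, as in Jup, were held by 5495 windows for the GC box and 3315 for the CCAAT box. An E-box (CANNTG) was also searched, with 0 matches in Jup and at least 1 in 66.2% of windows. These matches are descriptions of the letters only.

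The first comparison asked whether mRNAs of the junction's own components were more abundant in the cortical than in the total fraction of unwounded cells. Jup was: it stood at 657, 588 and 711 CPM (TMM-normalised counts scaled to a common library size) in total RNA and at 1122, 1106 and 1057 CPM in cortical RNA. The 2 groups did not overlap, and Jup rose 1.68-fold (log2 fold change 0.75, SE 0.10, edgeR adjusted p = 2.40e-04). Jup was the 1 member of 9 called, all in the higher direction, where 6.62% of all genes tested were called higher and 14.2% in either direction. In bulk RNA, how many cells hold an mRNA and how much of it each cell holds cannot be told apart. This limit applies to the wounding comparisons below as well.

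The other members lay mostly above 0 without passing. The log2 fold change was positive for 8 of 9 members with a median of 0.26, against 6812 of 13571 genes and a median of 0.0023 over all genes tested. The 3 libraries of each group did not overlap for 7 of 9 members, against 36.2% of all genes. Among cadherins, Dsg3 went from 65.4 ± 3.20 to 84.9 ± 10.5 CPM (0.37, SE 0.19, edgeR adjusted p = 0.223) and Dsc3 from 149.6 ± 8.23 to 179.7 ± 4.27 CPM (0.26, SE 0.16, edgeR adjusted p = 0.330). Dsg2 was level, at 17.6 ± 1.62 and 17.3 ± 2.38 CPM, with a difference of -0.02 and an SE of 0.15. Dsc2, at 25 to 61 counts per library in unwounded total RNA, was too imprecise to compare (0.69, SE 0.41).

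Among armadillo partners, Pkp2 had the largest difference after Jup, from 19.6 ± 1.54 to 26.9 ± 1.70 CPM (0.46, SE 0.21, edgeR adjusted p = 0.182). Pkp1 went from 717 ± 45.2 to 845 ± 10.2 CPM (0.24, SE 0.10) and Pkp3 from 132 ± 8.82 to 146 ± 4.68 CPM (0.15, SE 0.09). Wounded total replicate 1 is in neither group compared and enters through the filter, the scaling and the shared estimate of spread. Without it, these fold changes hardly moved but 5 members were called higher. They were Jup, Pkp2, Dsg3, Dsc3 and Pkp1, where 10.1% of all genes were then called higher. Perp, which has the shortest coding sequence of the 9, went from 1576 ± 82.0 to 1783 ± 41.7 CPM (0.18, SE 0.10, edgeR adjusted p = 0.258). Its difference was 0.33 (adjusted p = 0.0278) with the trend on gene length removed. In that setting Jup was at 0.61, Dsc3 at 0.16 and Pkp1 at 0.15, each smaller than above, and Pkp3 stayed at 0.15.

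**Figure D2:**
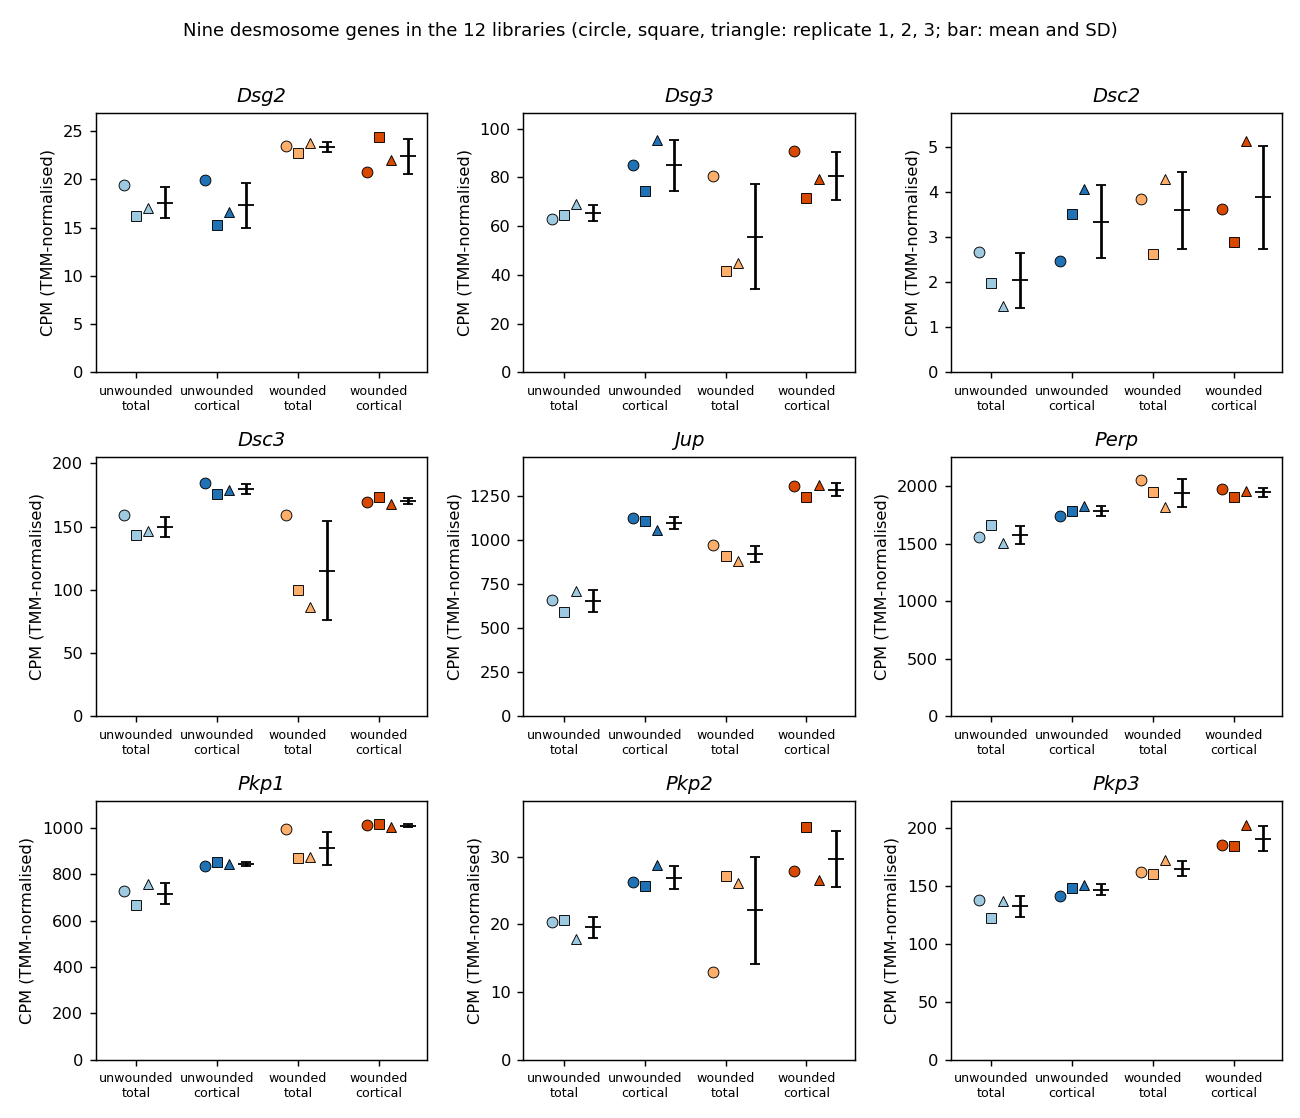
TMM-normalised CPM of each gene in each library, with symbols for replicates 1 to 3 and a bar for the mean and SD of each group; axes start at 0. Jup separates all 4 groups, and wounded total replicate 1 lies apart from the other wounded total libraries for Dsg3, Dsc3 and Pkp2.

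In wounded cells Jup was again higher in cortical RNA, at 1304, 1239 and 1309.6 CPM against 967, 909.9 and 880.2 CPM in total RNA. The groups did not overlap, and Jup rose 1.40-fold (log2 fold change 0.48, SE 0.10, edgeR adjusted p = 0.00461). Its cortical-to-total difference passed under all 26 alternatives in unwounded cells and all 26 in wounded cells. With the trend on gene length removed it was smaller, 0.61 in unwounded and 0.34 in wounded cells (edgeR adjusted p = 4.36e-04 and 0.0210). The desmocollin Dsc3 was the other member called, 2 of 9 in all and both higher, where 7.62% of genes were called higher and 15.7% in either direction.

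Dsc3 stood at 159, 99.9 and 86.1 CPM in wounded total RNA and at 169, 173 and 168 CPM in wounded cortical RNA. The cortical libraries were tight and the total libraries were not, since wounded total replicate 1 lay near the unwounded level. Dsc3 rose 1.48-fold (log2 fold change 0.56, SE 0.16, edgeR adjusted p = 0.0253), and by 0.87 (SE 0.10, adjusted p = 2.99e-07) without that library. The call was lost without wounded total replicate 2 (0.47, adjusted p = 0.120) or replicate 3 (0.39, adjusted p = 0.105), without any 1 wounded cortical library, and with only the wounded groups in the fit (0.56, adjusted p = 0.119).

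Dsg3, the desmoglein best known as the target of antibodies in pemphigus vulgaris, had the same shape. It stood at 80.4, 41.4 and 45.0 CPM in wounded total RNA and at 90.8, 71.3 and 79.5 CPM in wounded cortical RNA. Its groups overlapped only through wounded total replicate 1. Its difference was 0.54 (SE 0.19, edgeR adjusted p = 0.0661), and 0.90 (SE 0.12, adjusted p = 7.03e-06) without that library. It also passed with the replicate block (0.56, adjusted p = 0.0354).

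For the other cadherins, Dsg2 was level between fractions (-0.06, SE 0.15) and Dsc2 was imprecise (0.12, SE 0.40). Pkp3 went from 164 ± 6.41 to 191 ± 10.4 CPM (0.21, SE 0.09, edgeR adjusted p = 0.142) and Pkp1 from 914 ± 71.3 to 1010.5 ± 7.14 CPM (0.15, SE 0.10). Pkp2 went from 22.1 ± 7.88 to 29.6 ± 4.16 CPM (0.42, SE 0.21, edgeR adjusted p = 0.200), a difference of 0.15 (SE 0.15, adjusted p = 0.544) without wounded total replicate 1. Perp was level, at 1939.8 ± 119.5 and 1948 ± 38.7 CPM (0.01, SE 0.10). Groups did not overlap for 4 of 9 members, against 29.2% of all genes. Over the 9 members the median was 0.21, against 0.04 over all genes. Without wounded total replicate 1, Jup, Dsc3 and Dsg3 were called, 3 of 9, where 12.1% of genes were called higher.

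**Figure D3:**
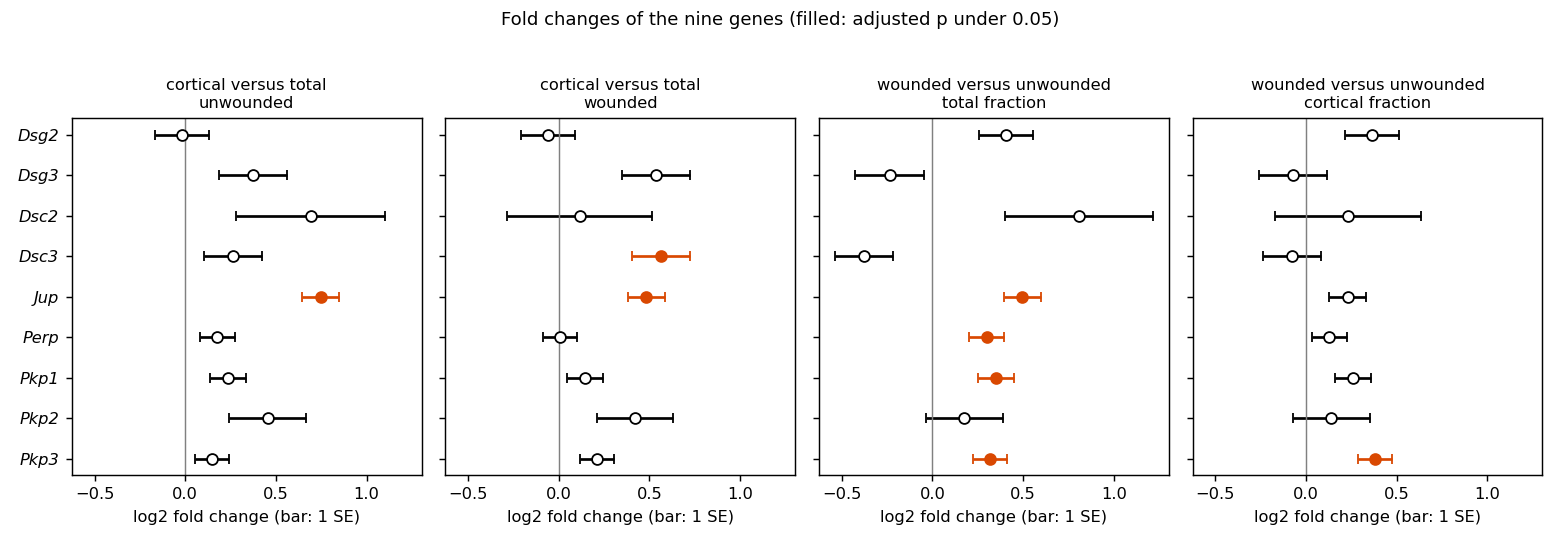
Log2 fold changes of the 9 genes in 4 comparisons, with bars of 1 SE and filled symbols for adjusted p under 0.05. Jup is filled in both cortical-to-total panels, and Jup, Perp, Pkp1 and Pkp3 are filled in the wounding panel of the total fraction.

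The next comparison asked how wounding changed these mRNAs in the total translating fraction. Plakoglobin, 2 plakophilins and Perp rose, and no member was called lower, where 7.2% of all genes were. From the unwounded values given above, Jup rose 1.41-fold to 967, 909.9 and 880.2 CPM (log2 fold change 0.50, SE 0.10, edgeR adjusted p = 0.00344). All wounded libraries lay above all unwounded ones. These 4 called members of 9 stand against 8.39% of all genes called higher and 15.6% in either direction.

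Pkp1, a plakophilin of stratified epithelia that strengthens desmosomes, stood at 726, 668 and 756 CPM in unwounded and 996, 871 and 874 CPM in wounded total RNA. It rose 1.27-fold (log2 fold change 0.35, SE 0.10, edgeR adjusted p = 0.0235), with no overlap. Pkp3, the plakophilin found through all epidermal layers, stood at 138, 122 and 136 CPM and at 161, 160.0 and 172 CPM. It rose 1.24-fold (log2 fold change 0.32, SE 0.09, edgeR adjusted p = 0.0306), also with no overlap. Perp stood at 1559, 1665 and 1504 CPM and at 2056, 1947 and 1817 CPM, again without overlap, and rose 1.23-fold (log2 fold change 0.30, SE 0.10, edgeR adjusted p = 0.0422). The Perp call was the least firm: it held in 9 of 26 alternatives, against 25 for Jup, 21 for Pkp1 and 18 for Pkp3. The Pkp1 call was lost without unwounded total replicate 1 (adjusted p = 0.0770) or 2 (0.0981), and the Pkp3 call without any 1 total library other than wounded total replicate 1 (0.0536 to 0.152). The Perp call was lost without any 1 library other than wounded total replicates 1 and 3 (0.0518 to 0.127). Fitted on the 2 total groups alone, none of the 9 passed, with an adjusted p of 0.0537 for Jup, 0.0920 for Pkp3, 0.131 for Pkp1 and 0.189 for Perp.

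The stratified-type cadherins had negative differences. Dsc3 stood at 159, 143 and 146 CPM in unwounded total RNA, and its wounded values of 159, 99.9 and 86.1 CPM overlapped them through replicate 1 only. Its difference was -0.38 (SE 0.16, edgeR adjusted p = 0.125), and without wounded total replicate 1 it fell by 0.69 (SE 0.10, adjusted p = 1.03e-05). Dsg3 stood at 62.9, 64.4 and 69.0 CPM against 80.4, 41.4 and 45.0 CPM, a difference of -0.24 (SE 0.19, edgeR adjusted p = 0.460). Without that library Dsg3 fell by 0.60 (SE 0.12, adjusted p = 8.00e-04). The wounded total group then held 2 libraries, and 7 members were called in all, 5 higher and 2 lower, where 13.4% of genes were called higher and 11.5% lower. Leaving out 1 library at a time, the difference ran from -0.69 to -0.21 for Dsc3 and from -0.60 to -0.063 for Dsg3. Over 26 alternatives Dsc3 was called in 4 and Dsg3 in 2. Beside the 0 members called lower with all libraries, Dsc3 alone was lower at an unadjusted p under 0.05 (edgeR unadjusted p = 0.0310; 29.3% of all genes passed that in either direction), DESeq2 called 0 lower, limma on FPKM called 0, and voom with quality weights (a setting added once the data had been seen) called 2.

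The simple-type forms had positive differences. Groups did not overlap for 5 of 9 members in all, against 32.1% of all genes. Dsg2 stood at 19.4, 16.3 and 17.1 CPM unwounded and 23.4, 22.8 and 23.8 CPM wounded, with no overlap (0.41, SE 0.15, edgeR adjusted p = 0.0746, and 0.0437 with DESeq2). Dsc2 went from 2.04 ± 0.604 to 3.596 ± 0.856 CPM (0.81, SE 0.41, edgeR adjusted p = 0.203). Pkp2 stood at 20.3, 20.6 and 17.8 CPM unwounded and 13.0, 27.2 and 26.1 CPM wounded, so that wounded total replicate 1 was the lowest of all and the other wounded libraries the highest. Pkp2 differed by 0.17 (SE 0.21, edgeR adjusted p = 0.651) with that library and rose by 0.44 (SE 0.15, adjusted p = 0.0326) without it.

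**Figure D4:**
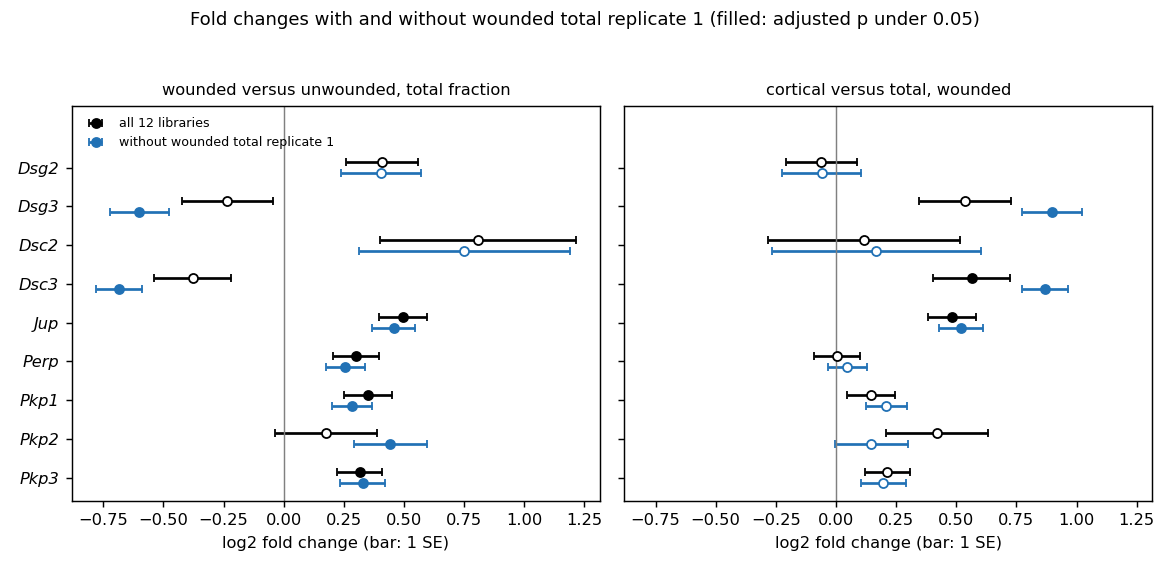
Log2 fold changes (bars of 1 SE) with all 12 libraries and without wounded total replicate 1, for wounding in the total fraction and for the wounded cortical-to-total comparison; filled symbols have an adjusted p under 0.05. Dsg3 and Dsc3 move furthest from 0, from -0.24 to -0.60 and from -0.38 to -0.69 for wounding, while Jup moves from 0.50 to 0.46 and Pkp1 from 0.35 to 0.28.

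In the cortical fraction 1 member passed for wounding. Pkp3 stood at 141, 148 and 150.1 CPM unwounded and 185, 184 and 203 CPM wounded, with no overlap. It rose 1.30-fold (log2 fold change 0.38, SE 0.09, edgeR adjusted p = 0.0406) and was the 1 member of 9 called, where 1.6% of genes were called higher and 2.48% in either direction. The call held in 10 of 26 alternatives, with log2 fold changes of 0.33 to 0.41. It was lost with the replicate block (adjusted p = 0.0535), with RLE factors (0.0557) and upper quartile factors, with library size alone and with no filter on low counts. Leaving out 1 library at a time, it held only without unwounded total replicate 3 or without wounded total replicate 1. Without wounded total replicate 1, Pkp1 joined Pkp3 as called (0.26, adjusted p = 0.0330), 2 of 9, where 5.47% of genes were called higher.

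Groups did not overlap for 6 of 9 members, against 26.9% of all genes, Jup and Pkp1 among them: Jup went from 1095 ± 33.8 to 1284 ± 39.0 CPM (0.23, SE 0.10, edgeR adjusted p = 0.249) and Pkp1 from 845 ± 10.2 to 1010.5 ± 7.14 CPM (0.26, SE 0.10, edgeR adjusted p = 0.180). With only the 2 cortical groups in the fit both passed (adjusted p = 0.00144 for Jup and 4.24e-04 for Pkp1). Perp went from 1783 ± 41.7 to 1948 ± 38.7 CPM (0.13, SE 0.10). Dsc3 and Dsg3, low in the wounded total libraries 2 and 3, were nearly level in cortical RNA, at 179.7 ± 4.27 and 170.3 ± 2.62 CPM for Dsc3 and 84.9 ± 10.5 and 80.5 ± 9.79 CPM for Dsg3. The wounded Dsc3 libraries all lay below the unwounded ones and those of Dsg3 overlapped, with differences of -0.08 (SE 0.16) and -0.07 (SE 0.19). Dsg2 went from 17.3 ± 2.38 to 22.4 ± 1.83 CPM (0.36, SE 0.15, edgeR adjusted p = 0.216), close to its difference in total RNA.

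Whether wounding changed the cortical-to-total ratio itself was tested as an interaction. No member passed: edgeR called 0 of 9, 0 had an unadjusted p under 0.05 (9.05% of all genes did), DESeq2 and limma on FPKM called 0, and voom with library quality weights called 2. Over all genes 0.125% were called. The estimates ran from -0.58 (SE 0.57) for Dsc2 to 0.30 (SE 0.23, edgeR adjusted p = 0.758) for Dsc3. For Jup the interaction was -0.27 (SE 0.14, edgeR adjusted p = 0.622). Without wounded total replicate 1 the interaction was 0.61 (SE 0.13, adjusted p = 0.00950) for Dsc3, the 1 member called, where 1.06% of genes were called higher, and 0.53 (SE 0.16, adjusted p = 0.0788) for Dsg3.

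Ratios between related genes within a library do not depend on the scaling between libraries. The ratio of Dsg3 to Dsg2 (FPKM) was 6.53, 7.97 and 8.13 in unwounded total libraries and 6.90, 3.65 and 3.81 in wounded total libraries. In cortical RNA it was 8.58, 9.78 and 11.5 unwounded and 8.78, 5.88 and 7.28 wounded. Dsg3 thus outnumbered Dsg2 in every library, and the lowest ratios were in wounded total replicates 2 and 3. The wounded-to-unwounded change in the ratio was 0.610-fold in total RNA and 0.730-fold in cortical RNA, each with an exact permutation p of 0.2 (adjusted p = 0.343).

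The ratio of Dsc3 to Dsc2 was 58.0, 70.9 and 97.1 in unwounded total libraries and 40.4, 37.0 and 19.6 in wounded total libraries. These groups did not overlap, wounded total replicate 1 included, and the change was 0.418-fold (exact two-sided permutation p = 0.1, adjusted p = 0.3). In that replicate Dsc3 stood at 159 CPM, as in unwounded total replicate 1, so its lower ratio came from Dsc2. Dsc2 had 65 counts there and 25 to 61 in unwounded total libraries, so these ratios are imprecise. In cortical RNA the ratio was 73.1, 49.0 and 42.9 against 45.6, 58.5 and 31.9, with overlap (exact permutation p = 0.5). Pkp1 to Pkp3 stayed within 3.56 to 4.44 in all 12 libraries. Its groups still did not overlap with wounding in cortical RNA (0.919-fold) or from total to cortical RNA in unwounded cells (1.06-fold). Dsg3 to Dsg2 also did not overlap from total to cortical RNA in unwounded cells (1.32-fold). Each of these had an exact permutation p of 0.1 (adjusted p = 0.3), as did Dsc3 to Dsc2 with wounding in total RNA. With 3 libraries against 3 the smallest p is 0.1, so none of the 12 ratio comparisons could pass.

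**Figure D5:**
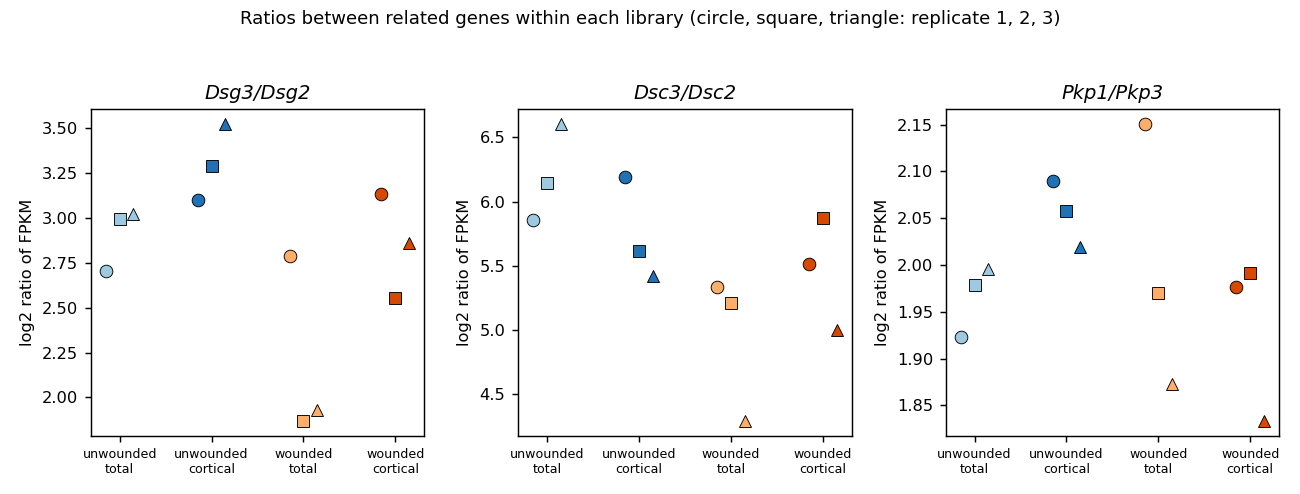
Log2 ratio of FPKM within each library for 3 pairs of related genes, with symbols for replicates 1 to 3; the axes do not start at 0 and differ between panels. Dsc3 to Dsc2, which rests on low Dsc2 counts, is lower in all 3 wounded total libraries than in all 3 unwounded total libraries. Dsg3 to Dsg2 overlaps between these groups through wounded total replicate 1.

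Other desmosomal genes are given for comparison, with all libraries only, as are the lists that follow. Of 11 listed, 9 were tested. For this list and those below, 14.2% of all genes were called in either direction between unwounded fractions and 15.7% between wounded fractions. For wounding the shares were 15.6% in total RNA and 2.48% in cortical RNA. Dsp, the gene of desmoplakin and of the fusion protein, rose in all 4 comparisons: by 0.52 (SE 0.10, edgeR adjusted p = 0.00348) and 0.39 (SE 0.10, adjusted p = 0.018) from total to cortical RNA in unwounded and wounded cells. With wounding it rose by 0.76 (SE 0.10, adjusted p = 1.95e-04) in total and 0.63 (SE 0.10, adjusted p = 0.00372) in cortical RNA. The sources do not say if Dsp counts include transcripts of the transgene. From total to cortical RNA, 3 of the 9 rose in unwounded cells (median 0.40, against 0.26 for the members and 0.0023 over all genes) and 4 in wounded cells (median 0.39, against 0.21 and 0.04). Besides Dsp they included envoplakin (Evpl), a plakin of the cornified envelope, at 0.72 (SE 0.11, edgeR adjusted p = 7.02e-04) in unwounded and 1.05 (SE 0.11, adjusted p = 6.58e-05) in wounded cells, the latter above the 0.48 of Jup. Dsg1b (0.61, SE 0.20, adjusted p = 0.0489) passed in unwounded cells. Kazn, which encodes the desmosome-associated protein kazrin (0.64, SE 0.17, adjusted p = 0.0171), and Dsg1a (0.44, SE 0.14, adjusted p = 0.0435) passed in wounded cells.

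With wounding, 2 of these 9 genes were higher and 1 lower in total RNA, and 2 were higher in cortical RNA. Evpl rose by 0.39 (SE 0.11, edgeR adjusted p = 0.0257) in total and 0.72 (SE 0.11, adjusted p = 0.00273) in cortical RNA, and Kazn fell by 0.57 (SE 0.17, adjusted p = 0.0297) in total RNA.

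Keratins form the filaments that desmosomes anchor. Of 10 tested, 5 were higher in unwounded cortical RNA and 0 in wounded cortical RNA relative to total RNA. The former were led by Krt6b (1.30, SE 0.17, edgeR adjusted p = 1.95e-04), Krt16 (0.87, SE 0.12, adjusted p = 2.28e-04), Krt14 (0.56, SE 0.13, adjusted p = 0.00788) and Krt5 (0.52, SE 0.10, adjusted p = 0.00251). With wounding 6 of 10 were higher in total RNA (median 0.66, against -0.03 over all genes) and 4 of 10 in cortical RNA. In total RNA the wound keratins Krt6b and Krt16 rose by 2.80 (SE 0.17, edgeR adjusted p = 1.79e-07) and 1.77 (SE 0.12, adjusted p = 2.37e-07), and the basal keratin Krt14 by 1.04 (SE 0.13, adjusted p = 7.85e-05), with Krt6a at 0.85 (SE 0.11, adjusted p = 1.14e-04). In cortical RNA Krt6b rose by 1.496, Krt16 by 0.88, Krt14 by 0.65 and Krt6a by 0.62 (edgeR adjusted p = 1.28e-04, 6.41e-04, 0.0130 and 0.00601). The summed FPKM of the 8 keratinocyte markers was 4598 to 5272 in unwounded total libraries and 7769 to 9560 in wounded ones. In cortical RNA it was 6785 to 6870 unwounded and 9405 to 9627 wounded. This sum was made up mostly of Krt14 and Krt5, which are already among the keratins above. The marker Sfn had a median of 423 FPKM over the 12 libraries, and the remaining markers reached at most 17.9 FPKM. The summed FPKM of the simple-epithelium keratins Krt7, Krt8 and Krt18 was 2.80 to 3.83 in unwounded and 0.177 to 1.46 in wounded total libraries. The part of these markers in the rise of Jup, Pkp1, Pkp3 and Perp was not tested.

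Adherens junction genes give a second comparison, since plakoglobin also joins classical cadherins. Of 9 tested, 3 were higher in unwounded cortical RNA: Nectin4 (1.28, SE 0.18, edgeR adjusted p = 2.85e-04), p120-catenin Ctnnd1 (0.88, SE 0.13, adjusted p = 5.47e-04) and E-cadherin Cdh1 (0.60, SE 0.13, adjusted p = 0.00633). In wounded cells 1 of 9 was higher in cortical RNA (median 0.36), Ctnnd1 at 0.68 (SE 0.13, adjusted p = 0.00328), beside 0.48 for Jup. With wounding, 1 of 9 was higher in total RNA, alpha-catenin Ctnna1 (0.35, SE 0.09, adjusted p = 0.0188), and 0 were called in cortical RNA. Ctnnb1, the relative of Jup, differed by -0.29 (SE 0.21, adjusted p = 0.403) with wounding in total RNA.

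By Pearson correlation of log2 CPM over the 12 libraries, the 5 genes most like the mean profile of the 9 members, among 9310 other genes averaging 100 counts or more, were Col17a1 (r = 0.979), Itga6 (0.975), Btg1 (0.972), Copg2 (0.970) and Fuk (0.965). The 9 members did not all share that profile. Between members r ran from -0.37 for Dsg2 and Dsc3 to 0.91 for Pkp1 and Pkp3. Genes among the 2 most like single members included Myh14 (0.980) and Trim56 (0.976) for Jup, Krt5 (0.982) for Pkp1, Hdac5 (0.962) and Inpp5k (0.961) for Pkp3, and Tiparp (0.969) and Cs (0.961) for Perp. For Dsc3 they were Zfp664 (0.960) and Sf3b3 (0.959), for Dsg3 Hectd4 (0.961) and Ckap5 (0.960), and for Pkp2 Kctd2 (0.956) and Mfn2 (0.934). For the low genes they were Hcar2 (0.937) and Babam2 (0.926) for Dsg2 and Krt80 (0.903) and Fam83f (0.900) for Dsc2. These are descriptions over libraries that share 4 conditions and were picked as the highest of many.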

How the data were processed

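The authors deposited raw fragment counts and FPKM per gene, 1 column per library. CASAVA, HISAT2 and the build mm10 are named in the submitters' processing notes; the counting tool and annotation are not given in the sources used here. Deposited FPKM equalled counts divided by gene length and an effective library size of 0.825 to 1.10 times the total. Per the labels, poly-A RNA gave non-directional libraries. Groups came from titles; 0 sample columns were unused. Of 54495 gene identifiers in GENCODE M21, 98.3% had the deposited coordinates.

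The tests used edgeR 4.0.16 (R 4.3.3): filterByExpr, TMM, a group-means quasi-likelihood fit on 12 libraries, 5 contrasts, Benjamini-Hochberg adjustment over 13571 genes, threshold 0.05. Limma 3.58.1 and DESeq2 1.42.0 served as alternatives, with other scalings, filters, a replicate block and a gene length loess trend (span 0.5, degree 1). Ratios were tested by exact two-sided permutation (scipy 1.17.1). Log2 CPM used a prior count of 2. Scripts were tested on simulated counts. All 9 members are named; from the other lists, genes that passed, up to 4 with the largest change, and Dsp; Ctnnb1 was added as the relative of Jup. Members and lists were chosen with earlier results of these data known. Differences under the replicate block are in the closing section. Of the 2 genes most like Pkp1, 1 is not reported here.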

Additional observations from a re-analysis of the deposited data

How the results depend on the processing

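Member fold changes kept their direction and their side of the threshold in 1027 comparisons with an alternative setting, while 47 passed only in the alternative, 53 no longer passed and 34 changed sign. Depth limited Dsc2 most. With library size alone, members called higher numbered 4 (cortical to total, unwounded), 5 (wounded), 1 (wounding, total) and 0 (wounding, cortical). All genes then split 1582 higher to 469 lower, 2203 to 520, 708 to 1104 and 108 to 91, against 898 to 1030, 1034 to 1090, 1139 to 977 and 217 to 120. The median of all genes moved by 0.19 and 0.21 in the cortical-to-total comparisons; 199 genes were called for cortical wounding and 11 for the interaction. The cause of changed calls was not tested, except that fewer samples entered where groups or libraries were left out.

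With only the groups compared in the fit, members called higher were 4, 1, 0 and 3 in the same order, and all genes called 3014, 970, 1175 and 1423. With voom quality weights, added after seeing the data, they were 6, 5, 6 and 3, with 2 lower for wounding in total RNA and 2 higher for the interaction; all genes called were 3708, 4441, 5206, 1316 and 855. DESeq2 called 2 members and 2221 genes in unwounded cells, 1 member and 736 genes for cortical wounding, and 0 members and 72 genes for the interaction. With no filter on low counts, members called were 2 of 2194 genes called (unwounded), 1 higher and 1 lower of 2391 (wounding, total), 0 of 559 (wounding, cortical) and 0 of 138 (interaction). RLE and upper quartile factors called 0 members for cortical wounding, where 317 and 329 genes passed, and limma on log2 FPKM called 10 genes for the interaction with either pseudocount. With the gene length trend removed, 2 members and 1397 genes passed in unwounded cells and 2 members and 1259 genes in wounded cells. With the replicate block added to it, these were 2 and 1327, and 3 and 1173. For wounding 3 members were then higher and 1 lower in total RNA, where 1167 genes were higher and 1005 lower, and 0 of 317 genes called in cortical RNA were members.

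Same-numbered libraries did not deviate together (r = -0.0508 to 0.219 over 18 pairs), so the numbers were not taken as pairs. The replicate block called 1857, 1985, 2038 and 276 genes and 10 for the interaction, and 1, 3, 3 and 0 members.

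Leaving out 1 library at a time gave 1 to 5, 1 to 3, 1 to 5 and 0 to 2 members called higher, 0 to 2 lower for wounding in total RNA, and 0 to 1 for the interaction. All genes called then ranged from 949 to 3151, 1084 to 3475, 1128 to 3502 and 108 to 1276, and from 4 to 413 for the interaction, the highest always without wounded total replicate 1.

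No value of the opposite sign passed. For Dsg2 the unwounded cortical-to-total difference was 0.0027 with RLE factors, 0.17 with library size alone and 0.00555 with DESeq2, and 0.15 in wounded cells with library size alone. For Perp in wounded cells it was -0.022 with RLE factors and DESeq2, -0.028 with upper quartile factors, -0.020 on FPKM with either pseudocount, -0.012 with a mean of at least 50 counts and -0.010 with protein-coding genes only. The Pkp2 interaction was 0.035 with library size alone. Leaving out 1 library at a time, ranges that crossed 0 were -0.14 to 0.083 for Dsg2 (unwounded fractions), -0.14 to 0.29 for Dsc2 and -0.041 to 0.047 for Perp (wounded fractions), and -0.0083 to 0.44 for Pkp2 (wounding, total). They were -0.17 to 0.015 for Dsg3 and -0.022 to 0.40 for Dsc2 (wounding, cortical), and -0.14 to 0.082 for Dsg2, -0.036 to 0.53 for Dsg3 and -0.30 to 0.12 for Pkp2 (interaction). The log2 ratio of Pkp1 to Pkp3 ranged from -0.044 to 0.094 for wounding in total RNA and from -0.13 to 0.013 between wounded fractions.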

Other observations

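Some transcription factors known to act on desmosomal genes differed between groups. Of 8 tested, 3 rose from total to cortical RNA in unwounded cells (median 0.36, against 0.0023 over all genes): Klf5 by 1.00 (SE 0.19, edgeR adjusted p = 0.00205), Grhl1 by 0.62 (SE 0.16, adjusted p = 0.014) and Trp63, which encodes p63, by 0.42 (SE 0.11, adjusted p = 0.0152). With wounding in total RNA 2 of 8 were lower: Grhl3 by -1.23 (SE 0.31, edgeR adjusted p = 0.0133) and Trp53, which encodes p53, by -0.85 (SE 0.12, adjusted p = 2.28e-04). In wounded cortical against total RNA and for wounding in cortical RNA, edgeR called 0 of 8, beside 15.7% and 2.48% of all genes.

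Plakophilins are known to bind RNA-binding proteins, and 8 such genes were tested. In unwounded cortical RNA 1 was higher and 1 lower, where 14.2% of all genes were called, and in wounded cortical RNA 2 were higher (15.7%). With wounding 1 was higher and 2 lower in total RNA (15.6% of all genes called), and 0 were called in cortical RNA (2.48%). G3bp1, a stress granule protein, rose from total to cortical RNA by 0.31 (SE 0.09, edgeR adjusted p = 0.0312) in unwounded and 0.33 (SE 0.09, adjusted p = 0.0246) in wounded cells, and Pabpc1, the poly(A)-binding protein, by 0.43 (SE 0.10, adjusted p = 0.0113) in wounded cells. Eif4e, the cap-binding protein, was lower in unwounded cortical RNA (-0.57, SE 0.12, adjusted p = 0.00372). With wounding in total RNA Eif4e (-0.61, SE 0.12, adjusted p = 0.00187) and the helicase Eif4a1 (-0.32, SE 0.09, adjusted p = 0.03) were lower and the decay factor Upf1 higher (0.58, SE 0.16, adjusted p = 0.0187).

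Of 18 genes of desmosome assembly, trafficking and turnover, 5 were higher and 1 lower in unwounded cortical RNA. The largest were the calcium pump Atp2a2 (0.48, SE 0.12, edgeR adjusted p = 0.0104), the motor Kif5b (0.45, SE 0.11, adjusted p = 0.0137), the kinase Gsk3b (0.44, SE 0.10, adjusted p = 0.00956) and Rhoa, which was the lower one (-0.43, SE 0.11, adjusted p = 0.0154). In wounded cells 2 were higher, again Atp2a2 (0.47, SE 0.12, adjusted p = 0.0122) and the sheddase Adam10 (0.39, SE 0.13, adjusted p = 0.0478). With wounding 4 were higher and 4 lower in total RNA, where 8.39% of all genes were called higher and 7.2% lower. The largest changes were in the motor subunit Kif3a (0.80, SE 0.14, edgeR adjusted p = 0.00105), the small GTPases Rap1a (-0.76, SE 0.18, adjusted p = 0.00978) and Rap1b (-0.58, SE 0.15, adjusted p = 0.0124), and Flot1 (0.69, SE 0.21, adjusted p = 0.0351). In cortical RNA 2 were higher, Flot1 (0.83, SE 0.21, adjusted p = 0.0493) and the kinase Src (0.43, SE 0.09, adjusted p = 0.0222).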
